A study of Homo sapiens with 12 samples.

Results

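IGF2, DIO3 and NNAT are human imprinted genes, and their expression was followed in SW480 cells, a line from a colorectal adenocarcinoma. They were chosen by their gene symbols, with their values by treatment group and by replicate number already known. They are 3 of the 3699 genes in the authors' table, and 3 of the 23 imprinted genes found there from a list of 102 reported as imprinted in at least some tissues. RNA was sequenced in 12 libraries. In 3 of them the cells had received GLY and PUE together (GLY_PUE), in 3 GLY alone, in 3 PUE alone, and 3 were untreated. The labels spell out neither abbreviation, so both are kept as given. Treatment lasted 12 h in GLY_PUE and PUE and, by the labels of the libraries, 12, 13 and 14 h in GLY replicates 1, 2 and 3, while the treatment protocol gives 12 h for all, so whether the GLY times differed is not settled. All groups were the same line, grown in medium with 10% serum, with no change in genotype. Nothing in the labels says that libraries of a group came from separate cultures, so the spread between them may be technical.

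An imprinted gene is expressed mainly from the copy inherited from 1 parent, under the control of DNA methylation set in the germ line. Imprinted genes lie in clusters, and many act on fetal growth, the placenta or the brain. IGF2 encodes insulin-like growth factor 2, a secreted growth factor that signals through the IGF1 and insulin receptors and is often abundant in colorectal tumours. DIO3 encodes the type 3 deiodinase, a selenium enzyme that inactivates thyroid hormone and that has been described as a target of beta-catenin in colon cancer cells. NNAT encodes neuronatin, a small membrane protein of the endoplasmic reticulum that is abundant in developing brain and has been linked to calcium handling. The counts do not separate the parental copies, so imprinting itself was not measured.

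The recovered library totals were 19.7 to 21.4 M reads, of which the listed genes held 13.84 to 15.36%. Each listed gene had passed the authors' thresholds in at least 1 comparison, so differences are common in the table by construction. In GLY_PUE, PUE and untreated the library numbered 3 stood apart. Its chi-square per gene against the others of its group was 52.2 to 76.5, while numbers 1 and 2 differed by 2.13 to 5.10. In GLY the library that stood farthest apart was number 1, at 182 from number 2 and 257 from number 3, while numbers 2 and 3 differed by 74.9. Of 22 colon epithelium markers, 6 were in the table, among them VIL1, CDX2, ASCL2, LGR5 and AXIN2. Most of their summed level came from AXIN2 and ASCL2. The sum was 34.92 to 44.88 FPKM (fragments scaled by transcript length and library size) in GLY_PUE, 34.97 to 45.65 in GLY, 200 to 244 in PUE and 202 to 228 in untreated libraries. The other markers are not listed and were not analysed here, so the sum does not stand for all 22. In bulk RNA, fewer cells of a type and less RNA per cell cannot be told apart.

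IGF2 (gene ID 3481) was higher in the libraries numbered 3 than in numbers 1 and 2 of every group, and lower after either treatment with GLY than in untreated cells when libraries of the same number were compared. In GLY_PUE libraries 1, 2 and 3 it stood at 2.93, 3.76 and 8.64 FPKM. In GLY libraries it stood at 3.72, 3.48 and 7.89 FPKM, in PUE libraries at 6.32, 5.96 and 23.7 FPKM, and in untreated libraries at 5.92, 7.07 and 24.05 FPKM. The 4 highest values were thus those of the 4 libraries numbered 3, and the groups with and without GLY overlapped. The underlying counts ran from 292 to 2410, and all 12 were whole numbers. INS-IGF2, a readthrough gene that overlaps IGF2, is not among the listed genes and was not analysed here. Group means were 5.11 ± 3.09 FPKM in GLY_PUE, 5.03 ± 2.48 in GLY, 12.0 ± 10.1 in PUE and 12.3 ± 10.2 in untreated libraries (SD, n = 3 each). From highest to lowest the means ran untreated, PUE, GLY_PUE, GLY, and the ranges of all neighbours in that order overlapped. By mean level IGF2 ranked 909 of the 3699 genes, and its highest value was 8.20 times its lowest.

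The length that links count to FPKM was 4.67 to 4.95 kb for IGF2 across the libraries. It was 2.06 to 2.07 kb for DIO3, an intronless gene, and 1.17 to 1.26 kb for NNAT. IGF2 has several promoters and transcripts of different length. The table gives 1 value per gene, so which of them were used was not measured.

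DIO3 (gene ID 1735) is shown with its promoter, since it varied most of the 3 genes between libraries, and with the codon that makes its product a selenium enzyme. The promoter is RefSeq's on GRCh38.p14, chr14:101561245-101561544 on the + strand, 300 bases around the start site. Capitals mark the TATAAA motif, whose first base is at -32 from the start site.
DIO3 promoter: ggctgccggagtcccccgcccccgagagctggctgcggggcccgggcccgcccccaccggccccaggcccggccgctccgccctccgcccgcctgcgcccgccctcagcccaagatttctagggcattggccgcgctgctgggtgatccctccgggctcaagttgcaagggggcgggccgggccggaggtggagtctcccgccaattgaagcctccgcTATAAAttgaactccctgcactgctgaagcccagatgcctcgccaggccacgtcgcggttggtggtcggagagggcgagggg
The window holds 28 CG dinucleotides and is 73.0% G or C. TATAAA was searched on both strands and was found in 11.53% of 35116 promoter windows of the same length, and at least 28 CG dinucleotides in 26.17%. CTTTGAA and CTTTGTT, letter strings of the kind bound by TCF factors, the partners of beta-catenin, were also searched on both strands. They occur in 4.43% and 5.20% of the windows, and these letters are not in the DIO3 window. Other letter strings that TCF factors bind were not searched, so their sites as such were not assessed. The next stretch shows codon 170 of 304 of the coding sequence in GENCODE release 29, on chromosome 14. Capitals mark TGA, normally a stop codon, which the annotation gives as selenocysteine.
DIO3 codon: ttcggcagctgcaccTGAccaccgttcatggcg

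In all 4 groups DIO3 was lower in the library numbered 3, and at each number it was lower in either group with GLY than in untreated cells. It stood at 5.38, 5.22 and 1.19 FPKM in GLY_PUE libraries 1, 2 and 3. The values were 7.87, 4.42 and 1.09 FPKM in GLY, 13.13, 10.98 and 2.19 FPKM in PUE, and 13.66, 11.9 and 2.60 FPKM in untreated libraries. The 4 lowest values of DIO3 were those of the libraries numbered 3, the mirror image of IGF2. Counts ran from 48 to 571 and were whole in 12 of 12 libraries. Means were 3.93 ± 2.37 FPKM in GLY_PUE, 4.46 ± 3.39 in GLY, 8.77 ± 5.80 in PUE and 9.39 ± 5.94 in untreated libraries (SD, n = 3 each). The order of the means was untreated, PUE, GLY, GLY_PUE, again with overlapping neighbours throughout. DIO3 ranked 1055 of 3699 by mean level and had the widest range of the 3 genes, its highest value being 12.5 times its lowest.

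NNAT (gene ID 4826) was scarce in all libraries and lowest in GLY. It stood at 0.55, 0.68 and 0.61 FPKM in GLY_PUE, 0.16, 0.16 and 0.26 in GLY, 0.59, 0.42 and 0.64 in PUE, and 0.32, 0.53 and 0.43 in untreated libraries 1, 2 and 3. The 3 GLY libraries were below the other 9, and those numbered 3 were not set apart. These values rest on few reads. The counts were 14, 17 and 15.35 in GLY_PUE, 4, 4 and 7 in GLY, 14, 10 and 15 in PUE, and 8.07, 13.41 and 11 in untreated libraries, and 3 of the 12 were not whole, which leaves part of those estimates uncertain. Summed over a group, NNAT had 46 counts in GLY_PUE (exact Poisson 95% interval 33.7 to 61.4), 15 in GLY (8.40 to 24.7), 39 in PUE (27.7 to 53.3) and 32 in untreated libraries (21.9 to 45.2). The intervals cover counting error only. That of GLY lies below those of GLY_PUE and PUE and overlaps that of the untreated libraries. Means were 0.613 ± 0.065 FPKM in GLY_PUE, 0.193 ± 0.058 in GLY, 0.550 ± 0.115 in PUE and 0.427 ± 0.105 in untreated libraries (SD, n = 3 each). In that order of level (GLY_PUE, PUE, untreated, GLY) only untreated and GLY were neighbours without overlap. NNAT ranked 2723 of 3699.

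**Figure D1:**
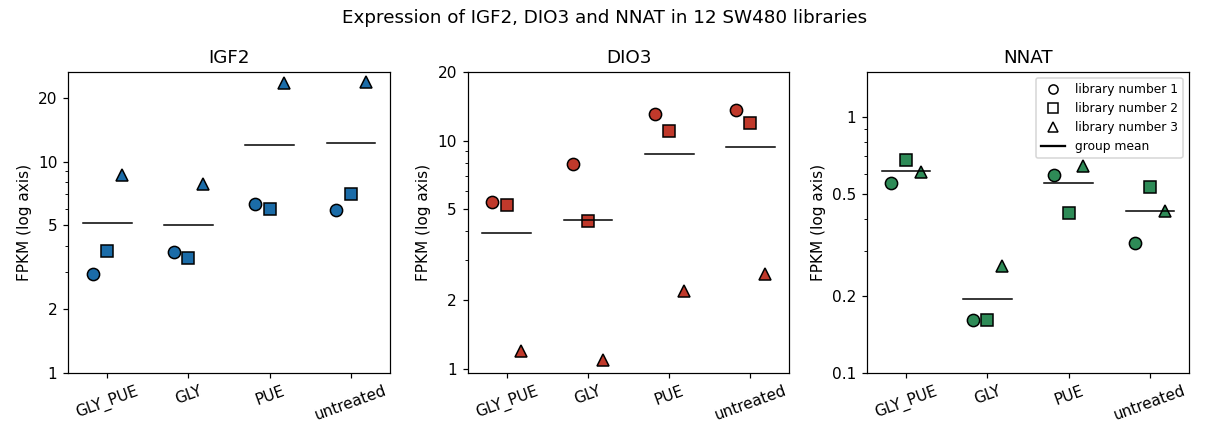
FPKM of IGF2, DIO3 and NNAT in each of 12 libraries (log axis), by treatment group, with the library number as the marker and the group mean as a line. Triangles (number 3) are the highest points of IGF2 and the lowest of DIO3 in every group, while for NNAT the 3 GLY libraries lie at 0.16 to 0.26 FPKM, below the rest.

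The split by library number was described within each group. For IGF2, number 3 was 2.58 times the mean of numbers 1 and 2 in GLY_PUE, 2.19 times in GLY, 3.86 times in PUE and 3.70 times in untreated libraries. On the log2 scale these are differences of 1.38, 1.13, 1.95 and 1.89, against gaps of 0.36, 0.10, 0.09 and 0.26 between numbers 1 and 2. The 2 groups with GLY thus had the smaller differences. For DIO3, the mean of numbers 1 and 2 was 4.45 times number 3 in GLY_PUE, 5.64 times in GLY, 5.51 times in PUE and 4.92 times in untreated libraries. The gap between numbers 1 and 2 reached 0.83 (log2) in GLY and was 0.04 to 0.26 in the other groups. For NNAT, the log2 difference of number 3 from numbers 1 and 2 was -0.004 in GLY_PUE, 0.70 in GLY, 0.36 in PUE and 0.06 in untreated libraries, where numbers 1 and 2 themselves differed by 0.31, 0.00, 0.49 and 0.73.

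**Figure D2:**
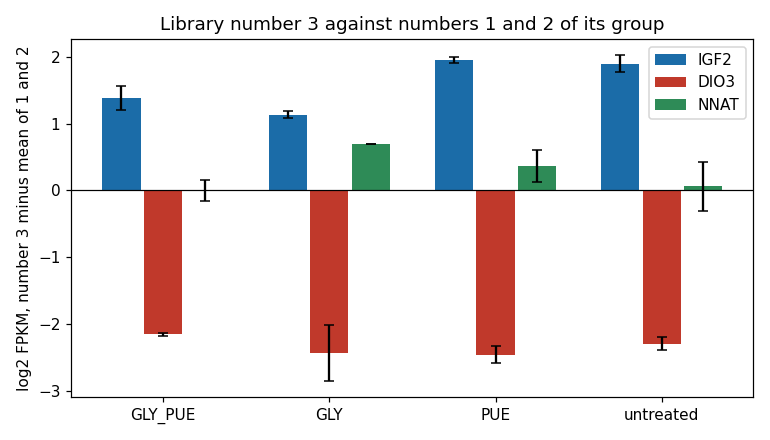
log2 FPKM of library number 3 minus that of the mean of numbers 1 and 2, per treatment group, as bars for IGF2, DIO3 and NNAT, with the log2 gap between numbers 1 and 2 as the full length of the black line. IGF2 bars are 1.13 to 1.95, DIO3 bars are -2.16 to -2.46, and NNAT bars stay within 0.70 of 0.

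In a fit of all 12 libraries with a term for number 3, that term was 1.63 (SE 0.16) for IGF2 and -2.35 (SE 0.19) for DIO3 on the log2 scale. For NNAT it was 0.24 (SE 0.25), close to the median of 0.23 over the 3429 genes tested. IGF2 stood at place 47 from the highest of these genes and DIO3 at place 5 from the lowest, as a description of genes chosen for this split. Of all tested genes, 23.4% passed at an adjusted p under 0.05, with 18.1% higher and 5.31% lower in number 3 (edgeR's quasi-likelihood test with Benjamini-Hochberg adjustment). With all libraries 804 genes were called, against 340 without untreated replicate 3, 346 without PUE replicate 3, 521 without PUE replicate 1 and 1656 without GLY replicate 1. Under TMM 250 genes were called higher and 327 lower, against 622 and 182 by library totals. Across the fits that each leave out 1 library IGF2 ran from 1.51 to 1.79 and DIO3 from -2.41 to -2.26. Neural and neuroendocrine markers were read beside the split, with no test. Of 18 such genes 5 were in the table, and their summed FPKM, most of it from CHGB and SYT1, was highest in number 3 of each group, at 12.56 in GLY_PUE, 13.09 in GLY, 21.86 in PUE and 23.06 in untreated libraries, where the lowest libraries had 6.02, 3.32, 9.01 and 8.79. NCAM1 went another way, at 0.17, 0.19 and 0.15 FPKM in GLY_PUE and 0.38, 0.35 and 0.36 in untreated libraries. None of the 5 was at 0 in all libraries of a group, and their part in the values of IGF2 and DIO3 was not tested.

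For treatment, libraries of the same number were set side by side. IGF2 in GLY was 62.8%, 49.2% and 32.8% of its untreated level at numbers 1, 2 and 3. In GLY_PUE it was 49.5%, 53.2% and 35.9% of the untreated level. In PUE it was 106.8%, 84.3% and 98.5%, so on both sides of the untreated value. DIO3 in GLY was 57.6%, 37.1% and 41.9% of its untreated level, and in GLY_PUE 39.4%, 43.9% and 45.8%. In PUE it was 96.1%, 92.3% and 84.2%, lower at each number by a small margin. NNAT in GLY was 50.0%, 30.2% and 60.5% of untreated, and in GLY_PUE 171.9%, 128.3% and 141.9%. NNAT in PUE was 184.4%, 79.2% and 148.8%, with no shared direction. Set against GLY alone, NNAT in GLY_PUE was 343.8%, 425.0% and 234.6%, while IGF2 was 78.8%, 108.0% and 109.5% and DIO3 68.4%, 118.1% and 109.2%. The comparisons share untreated or GLY libraries. The labels do not say that a number marks a shared culture or day.

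**Figure D3:**
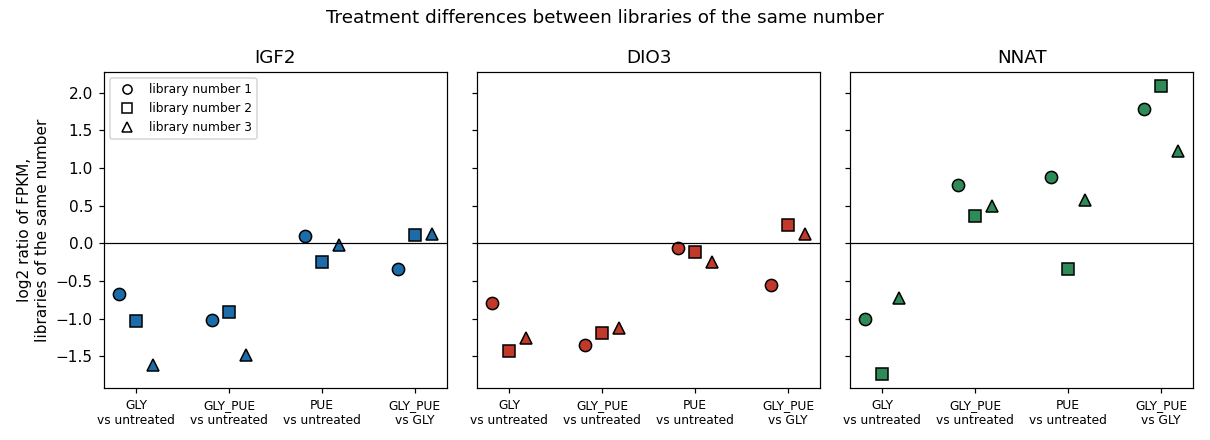
log2 ratio of FPKM between libraries of the same number, for 4 comparisons and the 3 genes, 1 marker per library number. IGF2 and DIO3 lie below 0 at every number in GLY and GLY_PUE against untreated and near 0 in PUE, and NNAT lies below 0 in GLY against untreated and at 1.23 to 2.09 in GLY_PUE against GLY.

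Over whole groups, IGF2 and DIO3 overlapped in all 5 comparisons. NNAT did not overlap in GLY against untreated, where 83.3% of tested genes did not overlap either, or in GLY_PUE against GLY (4.81%). In GLY_PUE against untreated (87.3%) the answer for NNAT depended on the measure. By FPKM it did not overlap, with 0.55 in GLY_PUE replicate 1 above 0.53 in untreated replicate 2. By CPM (counts scaled by library size only) the same libraries had 0.656 and 0.667, so NNAT overlapped. In PUE against untreated (3.30%) and GLY_PUE against PUE (87.8%) all 3 genes overlapped. These contrasts were used in choosing the genes, so nothing is read from the counts. All 3 genes passed the filter on low counts. NNAT, with 4 to 7 counts in GLY, passed through the other groups.

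The fitted log2 differences of GLY from untreated were -1.33 (SE 0.69) for IGF2, -1.07 (SE 0.81) for DIO3 and -1.15 (SE 0.42) for NNAT, where the median of all tested genes was -1.15. Those of GLY_PUE from untreated were -1.30 (SE 0.68), -1.26 (SE 0.82) and 0.45 (SE 0.38), against a median of -1.03. NNAT was therefore on the other side of 0 from most of the table in GLY_PUE. For PUE against untreated they were -0.05 (SE 0.67), -0.10 (SE 0.80) and 0.30 (SE 0.38), with a median of 0. Normal 95% intervals ran from -1.37 to 1.27 for IGF2, from -1.67 to 1.47 for DIO3 and from -0.45 to 1.05 for NNAT in this fit, which leaves the library number out. GLY_PUE differed from GLY by 0.04 (SE 0.68), -0.18 (SE 0.81) and 1.60 (SE 0.41), with a median of 0.11. There NNAT was at place 22 from the highest of 3429. GLY_PUE differed from PUE by -1.24 for IGF2, -1.16 for DIO3 and 0.15 for NNAT. The difference between the PUE effect with GLY and the PUE effect without it was 0.09 (SE 0.95), -0.08 (SE 1.14) and 1.30 (SE 0.56), given with no test, and it passed for none of the 3429 genes (edgeR, 33 genes at an unadjusted p under 0.05).

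Most of the spread in IGF2 and DIO3 within groups lay between number 3 and the others. With a term for number 3 the GLY difference was -1.13 (SE 0.23) for IGF2 and -1.11 (SE 0.22) for DIO3, and without the 4 libraries numbered 3 it was -0.87 (SE 0.22) and -1.06 (SE 0.30). The PUE difference with the same term was -0.07 (SE 0.22, 95% interval -0.51 to 0.36) for IGF2 and -0.13 (SE 0.22, interval -0.56 to 0.29) for DIO3. The GLY_PUE difference from untreated without those libraries was -1.01 (SE 0.22) and -1.27 (SE 0.30). For NNAT the GLY difference without them was -1.44 (SE 0.47) and the GLY_PUE difference from GLY 1.92 (SE 0.44). Without untreated replicate 3 alone, the groups are unequal in number 3, and IGF2 was -0.39 in GLY and -0.36 in GLY_PUE against untreated. Without PUE replicate 3 it was -0.26 in GLY_PUE against PUE. Without GLY_PUE replicate 3 IGF2 was -1.95 in GLY_PUE against untreated and -1.90 against PUE. DIO3 in GLY against untreated was -1.77 without GLY replicate 1, -0.61 without GLY replicate 3 and -0.70 without untreated replicate 1. Without GLY_PUE replicate 3 DIO3 was -0.83 in GLY_PUE against untreated and -0.73 against PUE, and without PUE replicate 1 the last of these was -0.75. NNAT in GLY_PUE against untreated was 0.28 without untreated replicate 1.

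The size of every GLY difference rests on the scaling by library totals. TMM, which centres the listed genes, moved the median of all genes by 1.13 in GLY and 1.01 in GLY_PUE against untreated. Under TMM the GLY difference was -0.14 for IGF2, 0.13 for DIO3, with the other sign, and -0.04 for NNAT. In GLY_PUE it was -0.24, -0.29 and 1.45. The NNAT difference of GLY_PUE from GLY was 1.49 under TMM, and the number 3 differences were 1.37 for IGF2 and -2.62 for DIO3. These last 3 differences kept their sign under TMM, while the small difference of IGF2 between GLY_PUE and GLY did not (-0.10).

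In the authors' deposited table, IGF2 had a log2 ratio of -1.33 in GLY against untreated (q = 4.3e-222) and DIO3 one of -1.07 (q = 3.3e-51). For both genes the libraries of GLY and untreated overlapped. In the fit of groups above, which leaves the library number out, the normal 95% intervals of GLY against untreated were -2.67 to 0.01 for IGF2 and -2.67 to 0.52 for DIO3. With a term for number 3 these intervals were -1.57 to -0.68 and -1.55 to -0.67. All of them rest on the scaling by library totals. The authors' deposited table gives NNAT -1.19 in that comparison (q = 0.00944), which does not meet the q-value of 0.001 that all listed genes meet somewhere. NNAT met it in the authors' deposited table for GLY_PUE against GLY (1.63, q = 0.000118) and for GLY against PUE (-1.46, q = 0.000689). For PUE against untreated the authors' deposited table gives -0.07 for IGF2 (q = 0.353), -0.09 for DIO3 (q = 0.555) and 0.28 for NNAT (q = 0.802).

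Across the 12 libraries, Pearson's r of log2(FPKM + 0.1) was -0.439 between IGF2 and DIO3, 0.323 between IGF2 and NNAT and -0.043 between DIO3 and NNAT. Of the deviations from the group means it was -0.956, 0.497 and -0.486. These describe 12 libraries that share treatments and numbers, and carry no test. Where treatment was removed, IGF2 and DIO3 were near mirror images. Both were chosen with their opposite values in number 3 known, so a strongly negative r was built into the choice.

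The genes most like each of the 3 were named by r over 2235 or 2236 genes with a mean of at least 1 FPKM. For IGF2 over the 12 libraries they included PCBP3 (0.961), SMCO2 (0.959), MXD4 (0.957) and EPS8L3 (0.955). MXD4 is a partner of MAX. SMCO2 stood at 1.45, 1.69 and 4.23 FPKM in GLY_PUE, 1.85, 1.49 and 3.96 in GLY, 4.19, 4.94 and 15.07 in PUE, and 5.63, 5.15 and 17.61 in untreated libraries, highest in number 3 of each group as IGF2 was. By deviations from the group means the nearest to IGF2 were LOXL4, a lysyl oxidase (0.994), VSIG10L (0.986), SMCO2 (0.985), MRVI1 (0.985) and CNPY1 (0.982). The lowest r with IGF2 over the 12 libraries was that of FOSB, an immediate early transcription factor (-0.975), which was named after its values were seen. FOSB stood at 17.09, 18.01 and 9.51 FPKM in GLY_PUE, 17.86, 16.5 and 8.20 in GLY, 8.06, 8.34 and 2.18 in PUE, and 8.31, 8.87 and 2.12 in untreated libraries, lowest in number 3 of each group.

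For DIO3 over the 12 libraries the nearest were HIST1H4H (0.972), ROR2 (0.956), HIST2H2AA3 and HIST2H2AA4 (0.940 each) and NPC2 (0.919). HIST1H4H, HIST2H2AA3 and HIST2H2AA4 encode histones, and the last 2 had the same value in every library, so these near-identical copies count as 1 measurement. ROR2, a receptor for WNT5A, stood at 2.22, 2.55 and 0.88 FPKM in GLY_PUE, 2.87, 2.83 and 0.71 in GLY, 4.11, 4.05 and 1.56 in PUE, and 3.01, 3.72 and 1.26 in untreated libraries, lowest in number 3 of each group as DIO3 was. By deviations the nearest were HIST1H2BD (0.990), KRTAP2-3 (0.989), HIST1H4H (0.987), SEMA7A (0.985) and RNF223 (0.980). KRTAP2-3, a hair keratin-associated protein, followed DIO3 by number but not by treatment: it stood at 193, 199 and 70.2 FPKM in GLY_PUE, 218, 174 and 63.6 in GLY, 24.5, 21.5 and 8.03 in PUE, and 26.6, 28.9 and 7.31 in untreated libraries. The lowest r with DIO3 over the 12 libraries was that of CHGB, a granin of secretory granules (-0.943), which is also 1 of the 5 neural and neuroendocrine markers and was named after its values were seen.

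For NNAT the nearest were ARHGAP11B (0.787), LOC112268124 (0.749), ZNF493 (0.694), SAMD15 (0.677) and PPP1R12B (0.674). By deviations they included ERAP2 (0.681), GRAPL (0.667), CARD8 (0.655) and LOC102724250 (0.655). These are weaker than for IGF2 and DIO3 and rest on the low counts of NNAT. ARHGAP11B was lowest in GLY replicates 1 and 2 (0.82 and 0.93 FPKM), while GLY replicate 3 had 2.23 FPKM. With Spearman's rho in place of r, 1 of the 5 nearest genes of IGF2, 2 of those of DIO3 and 0 of those of NNAT over the 12 libraries were the same. By deviations 2, 0 and 2 of the 5 were the same for IGF2, DIO3 and NNAT. With a mean of at least 0.1 FPKM in place of 1, 1 of 5 was the same for IGF2, 4 for DIO3 and 1 for NNAT over the 12 libraries, and 3, 5 and 0 by deviations.

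Of 99 other imprinted genes on the list, 20 were in the table and 19 were tested. H19, DLK1, MEG3, DIO3OS and BLCAP, which share clusters with the 3 genes, are not listed there and were not analysed here. In GLY against untreated, 6 of the 19 rose, 7 fell and 6 did not pass, where 84.3% of all tested genes passed, 19.7% higher and 64.6% lower. Their median log2 difference was -0.51 beside -1.15 over all genes. Under TMM 7 of the 19 rose and 3 fell, and of all genes 812 rose and 346 fell. TP73, a p53 family transcription factor, fell to 0.263 ± 0.057 FPKM in GLY, against 3.89 ± 0.40 in untreated libraries (SD, n = 3 each; log2 -3.87, SE 0.30, adjusted p = 8.38e-06). ERAP2, a peptide-trimming aminopeptidase, fell by 2.41 and OSBPL5, an oxysterol-binding protein, by 2.05 on the log2 scale (SE 0.34 each; adjusted p = 0.000143 and 0.000402). KLF14, a transcription factor, rose to 2.60 ± 0.97 FPKM in GLY, against 0.457 ± 0.176 in untreated libraries (log2 2.49, SE 0.38, adjusted p = 0.000231).

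In GLY_PUE against untreated, 7 of the 19 rose, 6 fell and 6 did not pass, where 77.3% of tested genes passed, 20.2% higher and 57.1% lower. The median was -0.42 beside -1.03. Under TMM 8 of the 19 rose and 3 fell, and of all genes 817 rose and 394 fell. TP73 (log2 -3.73, SE 0.30, adjusted p = 8.45e-06) and ERAP2 (-2.50, SE 0.34, adjusted p = 0.000132) fell again. GPR1, a chemerin receptor, rose to 9.17 ± 0.92 FPKM in GLY_PUE, against 1.53 ± 0.35 in untreated libraries (2.53, SE 0.40, adjusted p = 0.000339), and KLF14 rose by 2.28 (SE 0.38, adjusted p = 0.000408). PUE against untreated and GLY_PUE against GLY gave no call in the whole table (edgeR, 12 and 57 genes at an unadjusted p under 0.05, with 0 adjusted calls also by DESeq2 and limma), so no imprinted gene was called there.

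By library number, 5 of the 19 rose, 1 fell and 13 did not pass in number 3, beside the 23.4% of all genes given above. The median was 0.25 beside 0.23. L3MBTL1, a chromatin-binding protein, stood at 0.53, 0.60 and 1.55 FPKM in GLY_PUE, 0.39, 0.48 and 0.83 in GLY, 0.93, 1.04 and 2.25 in PUE, and 0.75, 1.04 and 1.79 in untreated libraries. It was highest in number 3 of each group (log2 1.15, SE 0.16, adjusted p = 0.000974). PHLDA2, a gene that restrains placental growth, from an imprinted domain next to that of IGF2, went the other way. It stood at 106.49, 99.55 and 73.71 FPKM in GLY_PUE, 146.29, 104.9 and 74.36 in GLY, 46.34, 51.8 and 21.29 in PUE, and 45.93, 55.38 and 22.15 in untreated libraries (log2 -0.90, SE 0.17, adjusted p = 0.00484). MAGI2 (0.78, adjusted p = 0.0133) and OSBPL5 (0.59, adjusted p = 0.0289) were also called higher in number 3. Both calls are lost without PUE replicate 3 or untreated replicate 3, and that of OSBPL5 under TMM and without any 1 of the 9 libraries of GLY_PUE, PUE and untreated. The list had 2 calls without PUE replicate 3, 3 without untreated replicate 3 and 3 under TMM.

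**Figure D4:**
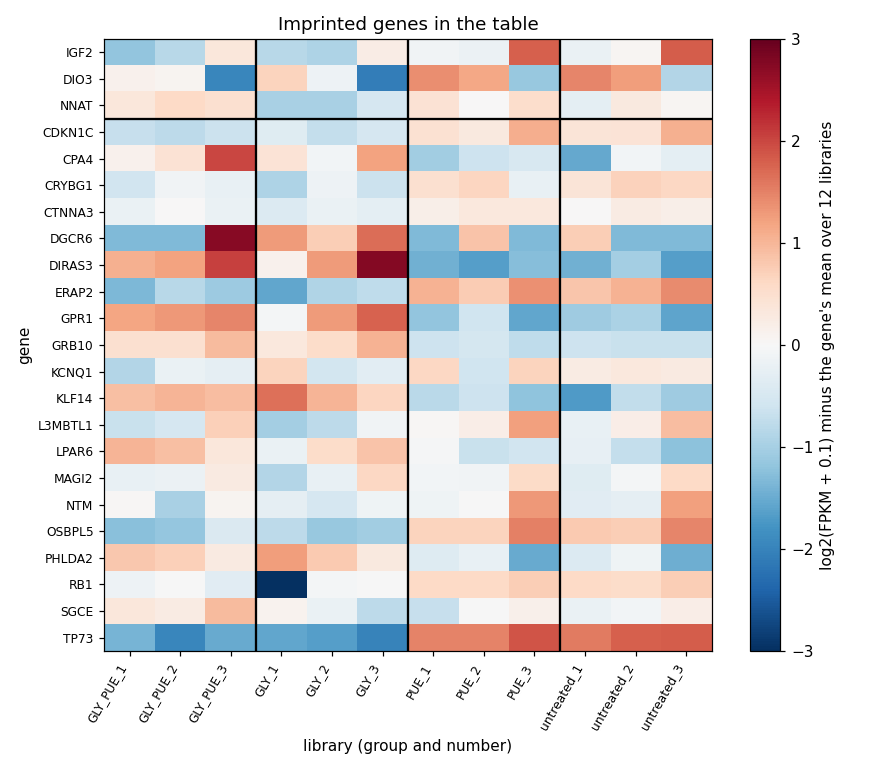
log2(FPKM + 0.1) of the 23 imprinted genes in the table, each minus its mean over 12 libraries, with libraries in columns by group and number and IGF2, DIO3 and NNAT in the top rows. IGF2 is reddest in number 3 of PUE and untreated, DIO3 is bluest in number 3 of GLY_PUE and GLY, and genes such as TP73 and ERAP2 differ by GLY in all libraries. The colour scale ends at 3 in either direction.

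Genes of the table that start within 1 Mb of the 3 genes in GENCODE release 29 were listed after the data were seen. Of all tested genes 19.7% rose and 64.6% fell in GLY, and 18.1% rose and 5.31% fell in number 3. In GLY under TMM 812 of all genes rose and 346 fell. IGF2 has 9, of which 7 were tested. In GLY against untreated 2 of the 7 rose and 3 fell, and under TMM 2 rose and 1 fell. In number 3, 0 of the 7 rose and 1, PHLDA2, fell (edgeR), with log2 differences from -0.90 to 0.61. CDKN1C, an imprinted cell cycle inhibitor among them, was at 0.38 (adjusted p = 0.0920). DIO3 has HSP90AA1 and BEGAIN, which both rose in GLY (1.03 and 1.39, adjusted p = 0.00131 and 0.000993) and were at 0.22 and -0.07 in number 3 (adjusted p = 0.216 and 0.805). NNAT has 7, of which 5 fell and 0 rose in GLY against untreated, with a median of -1.30 beside -1.15 over all genes. Under TMM 0 of the 7 fell and 1 rose, while both neighbours of DIO3 were still called higher. In number 3, NDRG3 alone of these 7 was called (0.54, adjusted p = 0.0109). Under TMM 0 of the 7 were called higher there and 1 lower, and without untreated replicate 3 none was called (edgeR). Without GLY replicate 1 the calls in number 3 were 5 near NNAT and 3 near IGF2, where 1656 of all genes were called. Without GLY replicate 3 there were 2 near IGF2.

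Genes of the insulin-like growth factor axis were read next. Of 44 besides IGF2, 17 were in the table and tested. The receptor gene IGF1R is not listed and was not analysed here. In GLY against untreated 6 rose, 10 fell and 1 did not pass, where 19.7% of all genes rose and 64.6% fell, with a median of -1.10 beside -1.15. Among the binding proteins, which hold IGF2 outside the cell, IGFBP3 fell to 3.97 ± 1.18 FPKM in GLY, against 32.2 ± 1.72 in untreated libraries (SD, n = 3 each; log2 -3.02, SE 0.27, adjusted p = 1.57e-05). IGFBP7 (-2.07, adjusted p = 0.000599) and IGFBPL1 (-3.10, adjusted p = 0.000207) fell too, while IGFBP1, another binding protein at a low level, rose (1.29, adjusted p = 0.0188). STC2, an inhibitor of the protease that cleaves binding proteins, rose to 109 ± 10.2 FPKM in GLY, against 41.4 ± 5.88 in untreated libraries (1.40, SE 0.21, adjusted p = 0.000226). Among the receptors, INSR fell (-1.10, adjusted p = 0.00560). IGF2BP2, which binds IGF2 mRNA, rose (1.01, adjusted p = 0.00328). IGFBP1, INSR and IGF2BP2 were named after their values were seen. Under TMM, 6 rose and 4 fell, where 812 of all genes rose and 346 fell. IGFBP3, IGFBP7 and IGFBPL1 were still called lower. The INSR difference of -1.10 is smaller in size than the 1.13 by which TMM moved the median of all genes.

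In GLY_PUE against untreated 5 of the 17 rose, 9 fell and 3 did not pass, where 20.2% of all genes rose and 57.1% fell, with a median of -0.82 beside -1.03. IGFBP3 (-2.93), IGFBPL1 (-3.08) and IGFBP7 (-2.18) fell, and STC2 rose (1.40), with adjusted p = 2.08e-05, 0.000236, 0.000494 and 0.000249. Under TMM, 6 rose and 3 fell, where 817 of all genes rose and 394 fell. In number 3, 2 of the 17 rose, 0 fell and 15 did not pass, where 18.1% of all genes rose and 5.31% fell, with a median of -0.13 beside 0.23. The 2 were GAB1, an adaptor of receptor signalling (0.98, adjusted p = 0.00861), and IGFBPL1 (0.75, adjusted p = 0.0403). Neither call holds without PUE replicate 3 or without untreated replicate 3. That of IGFBPL1 is also lost without PUE replicate 1 or 2, untreated replicate 1 or 2, or GLY_PUE replicate 1. Without GLY replicate 1 the list has 8 calls, where 1656 of all genes were called. The direction of the calls rests on the scaling. In number 3, 1 rose and 5 fell under TMM, 1 and 3 under RLE, and 1 and 6 with DESeq2's own size factors. The call of IGFBPL1 is lost under each of these and with limma. STC2 was at -0.31 (adjusted p = 0.0657) and HMGA2, an architectural chromatin protein, at -0.51 (adjusted p = 0.117). IGFBP7 had a pattern like IGF2 in part. It was at 5.21, 5.15 and 4.65 FPKM in GLY_PUE, 5.40, 6.24 and 4.61 in GLY, 16.29, 17.01 and 35.12 in PUE, and 16.16, 17.02 and 35.04 in untreated libraries, so its number 3 stood out in the groups without GLY and not in those with it.

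Of 44 genes on a thyroid hormone list besides DIO3, 12 were in the table, and all 12 were tested. The list also holds genes of hedgehog and beta-catenin signalling, GLI3, SHH and CTNNB1 among them. Its counts and medians are therefore not those of hormone action alone. In GLY against untreated 12 fell and 0 rose (edgeR), where 64.6% of all genes fell, with a median of -1.71 beside -1.15. SLC7A8, a transporter of amino acids and thyroid hormone, fell to 19.5 ± 1.99 FPKM in GLY, against 139 ± 32.6 in untreated libraries (SD, n = 3 each; log2 -2.91, SE 0.24, adjusted p = 1.06e-05). SLC16A10, another transporter of the hormone, fell by 1.94 on the log2 scale (SE 0.33, adjusted p = 0.000442). HR, a corepressor of thyroid hormone receptors, fell to 1.67 ± 0.59 FPKM in GLY, against 7.70 ± 0.34 in untreated libraries (-2.19, SE 0.27, adjusted p = 6.24e-05). GLI3, a transcription factor of hedgehog signalling, fell too (-2.58, SE 0.31, adjusted p = 6.24e-05), as did CTNNB1, which encodes beta-catenin and was named after its values were seen (-1.48, adjusted p = 0.00275). DIO1, DIO2 and THRB are not listed and were not analysed here. Under TMM 4 of the 12 fell and 0 rose, where 346 of all genes fell and 812 rose. The 4 were SLC7A8, SLC16A10, HR and GLI3, so CTNNB1 was not called there.

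In GLY_PUE against untreated 9 of the 12 fell, 0 rose and 3 did not pass, where 57.1% of all genes fell, with a median of -1.58 beside -1.03. SLC7A8 (-2.90), HR (-2.52), GLI3 (-2.14) and THRA, a nuclear receptor for the hormone (-2.01), were the genes with the smallest p (adjusted p = 9.41e-06, 3.37e-05, 0.000181 and 0.000255). Under TMM 4 fell, where 394 of all genes fell and 817 rose, and THRA was not among them (-0.99). In number 3, SULT1A1, a sulfotransferase, rose (0.63, adjusted p = 0.0196) and SHH, a hedgehog ligand, fell (-1.15, adjusted p = 0.0156), and 10 did not pass, with a median of 0.06 beside 0.23. Of all genes 18.1% rose and 5.31% fell there. SHH stood at 1.83, 1.35 and 0.39 FPKM in GLY_PUE, 0.46, 1.78 and 0.67 in GLY, 3.15, 3.82 and 2.06 in PUE, and 3.71, 3.95 and 1.92 in untreated libraries. The call of SHH is lost without number 3 of GLY_PUE, PUE or untreated, and that of SULT1A1 without these or PUE replicate 1 and under TMM. Without GLY replicate 1 the list had 5 calls, where 1656 of all genes were called. SLC16A10 was at 0.50 (adjusted p = 0.0556) and SLC7A8 at 0.25 (adjusted p = 0.204).

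Of 34 genes of calcium handling in the endoplasmic reticulum besides NNAT, 7 were in the table and tested. In GLY against untreated 4 fell, 0 rose and 3 did not pass, where 64.6% of all genes fell, with a median of -0.97 beside -1.15. They were CAMK2G, a calmodulin-dependent kinase (-1.43, adjusted p = 0.000182), CALM3, a calmodulin (-1.15, adjusted p = 0.00129), ATP2A3, a calcium pump of the reticulum (-0.85, adjusted p = 0.00636), and ORAI3, a calcium channel (-0.97, adjusted p = 0.00746). In GLY_PUE against untreated 5 fell, 0 rose and 2 did not pass, where 57.1% of all genes fell, with a median of -1.09 beside -1.03. CALM3 (-1.35), ATP2A3 (-1.22), ORAI3 (-1.095) and CAMK2G (-1.05) were among them (adjusted p = 0.000557, 0.00106, 0.00455 and 0.00107). Under TMM the list had 0 calls in both comparisons, and in GLY the signs of ATP2A3 (0.33), ORAI3 (0.24) and CALM3 (0.07) turned. Of all genes 812 rose and 346 fell in GLY under TMM, and 817 rose and 394 fell in GLY_PUE. In number 3 none of the 7 passed (edgeR, with 3 at an unadjusted p under 0.05), where 23.4% of all genes passed. ATP2A1 was at -0.85 (adjusted p = 0.0562), RYR3 at 0.97 (adjusted p = 0.0881), ORAI3 at 0.39 (adjusted p = 0.0903) and RYR2 at 0.62 (adjusted p = 0.131). Under TMM, RLE, DESeq2 with its own size factors and limma 1 gene, ATP2A1, was called there. Without GLY replicate 1 there were 4 calls, where 1656 of all genes were called.

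**Figure D5:**
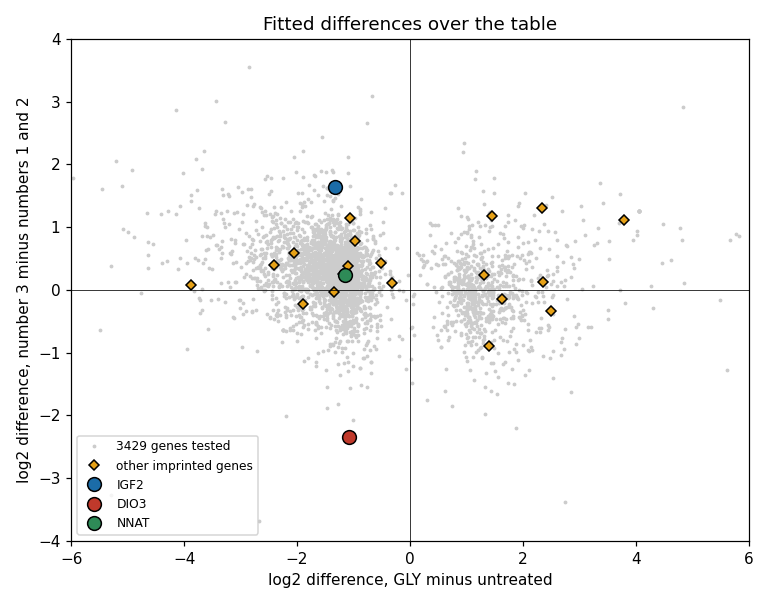
Fitted log2 difference of GLY from untreated (x axis) against that of number 3 from numbers 1 and 2 (y axis) for the 3429 genes tested (grey), with 19 other imprinted genes as diamonds and IGF2, DIO3 and NNAT as circles. The 3 circles have similar x values (-1.33, -1.07 and -1.15) and lie apart on the y axis at 1.63, -2.35 and 0.24; under TMM the x value of DIO3 has the other sign. The axes end at 6 and 4 in either direction, which leaves out 15 genes.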

How the data were processed

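RNA-seq of SW480 cells was deposited as 1 table of 3699 genes over 12 libraries. Per the file headers the authors deposited a read count per gene and library, an estimated count without normalization of which 58.2% are whole numbers (tolerance 0.001). The authors also deposited an expression value that behaves as FPKM, although the headers name no unit. The authors' log2 ratios, p-values and q-values stand in the same table, per the file headers. TopHat and DESeq 1.32.0 are named, with no role, per the submitters' processing notes. The counting tool, like the genome build, is not given in the sources used here. In at least 1 comparison of the authors every gene has a log2 ratio of 1 or more in size with a q-value no higher than 0.001.

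Relative library totals were read from counts divided by FPKM in 625 genes (at least 100 counts and 5 FPKM). Their scale came from 39 genes with a single transcript in GENCODE release 29, at 20.2 M reads for untreated library 1 (95% interval 20.0 to 20.7). Rounded counts went into edgeR 4.0.16 under R 4.3.3 (filterByExpr, robust quasi-likelihood fit of 4 groups, Benjamini-Hochberg adjustment over 3429 genes, threshold 0.05). Number 3 was tested with 1 extra term. The fit of GLY against untreated was also run on simulated counts. These held no split by library number and no shift of most genes, so the run does not cover either. The number 3 term was not simulated. A count of 3, the most that a count of 0 allows, is 0.140 to 0.152 CPM, counting error only.

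The 3 genes and the lists were chosen with earlier results of these data known. The 3 genes have no p-value of their own here. Named genes are, per list and comparison, the 4 with the smallest p, and per gene the 5 with the highest Pearson's r of log2(FPKM + 0.1). Any other gene is said to be named after its values were seen. Some genes that this rule or the lists name are not reported here. Other settings tried were scaling by TMM or RLE, DESeq2 1.42.0, limma 3.58.1 on log2 FPKM with pseudocounts of 1 and 0.1, other filters, a replicate block, a term for number 3, and libraries left out.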

Additional observations from a re-analysis of the deposited data

How the results depend on the processing

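The scaling had the most effect. Under TMM, RLE and DESeq2's own size factors, 1158, 1188 and 1238 genes were called in GLY against untreated (2890 by library totals), 1211, 1234 and 1285 in GLY_PUE against untreated (2651) and 1232, 1250 and 1281 in GLY_PUE against PUE (2669). In the same order of settings IGF2 was at -0.138, -0.199 and -0.199 in GLY and at -0.236, -0.277 and -0.277 in GLY_PUE against untreated, and at -0.178, -0.208 and -0.208 in GLY_PUE against PUE. DIO3 was at 0.126, 0.045 and 0.048 in GLY against untreated, with the other sign, and at -2.619, -2.585 and -2.588 in number 3. NNAT was at -0.040, -0.092 and -0.091 in GLY and at 1.447, 1.418 and 1.432 in GLY_PUE against untreated, and at 1.170, 1.144 and 1.153 in GLY_PUE against PUE. Calls by list were 10, 10 and 10 of the growth factor axis in GLY, 9, 9 and 9 in GLY_PUE and 6, 4 and 7 in number 3, of which 5, 3 and 6 were lower. They were 4, 4 and 4 of the thyroid list in GLY, 4, 5 and 5 in GLY_PUE and 1, 1 and 1 in number 3. Of the calcium list they were 0, 0 and 0 in GLY, 0, 0 and 0 in GLY_PUE and 1, 1 and 1 in number 3 (also 1 and 1 with limma), and of imprinted genes 3, 3 and 3 in number 3. In GLY, ATP2A3 turned to 0.333, 0.263 and 0.260, ORAI3 to 0.237, 0.164 and 0.162, and CALM3 to 0.066 under TMM. The shift of the median under these scalings is their construction.

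With limma and a pseudocount of 1, which shrinks low genes, NNAT was at -0.256 in GLY against untreated and 0.435 in GLY_PUE against GLY, and DIO3 at -1.804 in number 3. Without the 4 libraries numbered 3, NNAT was at 1.919 in GLY_PUE against GLY. Within groups, number 3 differed by 1.133 for IGF2 in GLY, -2.155 for DIO3 in GLY_PUE and 0.700 for NNAT in GLY.

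Leaving out 1 library at a time, IGF2 ran from -1.813 to -0.393 in GLY against untreated and from -1.900 to -0.256 in GLY_PUE against PUE, and NNAT from 1.459 to 1.907 in GLY_PUE against GLY. Calls ran from 0 to 1 in GLY_PUE against GLY (1 without GLY_PUE replicate 2) and from 340 to 1656 in number 3. List calls in number 3 ran from 2 to 8 (imprinted), 0 to 8 (growth factor axis), 0 to 5 (thyroid) and 0 to 4 (calcium).

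Same-numbered libraries deviated together with correlations of 0.106 to 0.766 (number 1), 0.074 to 0.590 (number 2) and 0.250 to 0.847 (number 3). All 18 were positive, and 1 was under 0.1. The labels do not say what a number marks, and the main fit left the numbers out. With a replicate block IGF2 was at -1.120 (SE 0.234), DIO3 at -1.137 (SE 0.201) and NNAT at -1.154 (SE 0.398) in GLY against untreated. In the main fit these SEs were 0.685, 0.813 and 0.419. The stricter filter, and the fit of GLY and untreated alone, removed NNAT and gave it no value. Of the main values and counts recomputed, 743 were labelled the same and 94 moved. A value of the 3 genes was labelled the same if it moved by less than the spread between libraries, whatever its sign. The turned signs of DIO3 in GLY are thus among the 743. A count was labelled the same if it stayed within a set ratio of the main count. For single named genes the label went by the call and its direction. With likeness and genes near the 3, 1184 of those results were the same, 29 moved, 7 reversed, 26 were stronger and 56 weaker. The cause of the changes was not tested. Few reads limit NNAT, and 3 libraries a group limit all comparisons.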
